A study of Mus musculus with 4 samples.

Results

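Desmosome genes were examined in basal cells sorted from mammary glands of mice fed a casein (CAS) or a soy protein isolate (SPI) diet. The genes were 10 by name: the desmogleins Dsg1a, Dsg2 and Dsg3, the desmocollins Dsc2 and Dsc3, plakoglobin (Jup), the plakophilins Pkp1, Pkp2 and Pkp3, and desmoplakin (Dsp). Every probe set (a group of array probes read as 1 value) that the platform annotation paired with exactly 1 of these genes was taken, which gave 22 of 34945 single-gene probe sets and 9 of 18193 genes. Dsg3 was not analysed here, since no probe set was paired with it alone. The 4 arrays were CAS replicates 1 and 2 and SPI replicates 1 and 2. All 4 samples were total RNA of freshly sorted mammary basal cells from mice of strain B66SJL/HEV/J, a mixed background, carrying the MMTV-Wnt1 transgene, so the controls carried it too. The mouse mammary tumour virus promoter of that transgene directs expression of the Wnt1 ligand mainly to mammary epithelium. Per the labels the sorted population holds stem cells, myoepithelial cells and their progenitors. The age of the mice, the length of feeding and the number of animals behind an array are not given in the sources used here, so p-values here reflect only how far these 4 samples spread, and that spread may be technical.

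Desmosomes are spot junctions that tie the keratin filaments of neighbouring epithelial cells together. Desmogleins and desmocollins are cadherins that span the membrane and meet those of the next cell. Inside the cell they bind plakoglobin and the plakophilins, which hold desmoplakin, the protein that grips the keratin filaments. Simple epithelia and the heart rely mainly on Dsg2, Dsc2 and Pkp2, while Dsg1, Dsg3, Dsc3 and Pkp1 are best known from stratified epithelia. Plakoglobin is a close relative of beta-catenin, the effector of Wnt signalling, and also sits in adherens junctions.

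Dsc2, Pkp2, Dsg1a and Jup were lower on the SPI diet, while Dsc3, Pkp3 and Dsp did not pass the test, with log2 differences of 0.094, 0.085 and 0.11. Counted once per gene, Dsc2 fell 2.52-fold (95% interval 2.02 to 3.13, with n = 2 arrays in each diet and a limma adjusted p of 0.0122), Dsg1a 2.08-fold (1.70 to 2.55, adjusted p = 0.0166), Pkp2 1.81-fold (1.46 to 2.23, adjusted p = 0.0321) and Jup 1.39-fold (1.22 to 1.58, adjusted p = 0.0410). In sorted bulk samples fewer cells of a type and less RNA per cell cannot be told apart. Each gene was represented by the average of those probe sets that reached its highest class of signal. Of the 9 genes 4 passed as lower, where 2.90% of all 18193 genes did, and 0 passed as higher by limma, where 0.786% of all genes did. At an unadjusted p under 0.05 there were 6 lower and 0 higher, where 10.3% of all genes were lower and 10.8% higher. These calls rest on all 4 arrays. A fit without 1 of them keeps 1 residual degree of freedom, a limit on every gene of the series alike. Whichever of CAS replicate 1, CAS replicate 2, SPI replicate 1 and SPI replicate 2 was left out, 0 of the 9 genes passed by limma and 5 were lower at an unadjusted p under 0.05, where 7.32% to 8.66% of all genes were. Dsc2 then lay at log2 differences of -1.22, -1.44, -1.46 and -1.21 with adjusted p of 0.189, 0.154, 0.0713 and 0.122 in that order.

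Each probe set was also tested on its own, among 45037. Of the 22 desmosome probe sets 5 passed as lower in SPI, where 1.25% of all probe sets did, and 0 passed as higher by limma, where 0.249% of all did. The 5 were both probe sets of Dsc2, a pair of the 4 of Pkp2, and the 1 of Dsg1a. At an unadjusted p under 0.05 there were 11 lower and 1 higher, where 8.35% of all probe sets were lower and 9.43% higher. Both SPI arrays lay below both CAS arrays in 15 of the 22, against 20.5% of all probe sets, and above them in 3, against 27.9%. The remaining 4 overlapped. The 22 are not independent, since they read 9 genes on the same arrays, 6 of them reading Dsg2 and 4 Pkp2. The median difference of the 22 was -0.26 on the log2 scale, beside 0.023 over all probe sets. All 5 that passed were lower by at least 1 on the log2 scale, a fall reached by 302 of the 45037 (0.671%). With any of the 4 arrays left out 0 of the 22 passed by limma, and 7 to 10 were lower at an unadjusted p under 0.05, where 5.49% to 7.02% of all probe sets were.

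The medians of the arrays over all probe sets lay between -0.0096 and 0.0092. In values already normalized and centred, such closeness says little about the single arrays. The deposited values had been centred so that the median of the 4 arrays is 0 for each probe set, which removes its level and leaves only differences between arrays. The 2 middle values of a probe set are therefore mirror images by construction, and the centred values do not rank desmosome genes by abundance. A coarse signal class, read from the step size of the digits, was 4 to 8 on the log2 scale for Dsg1a, Jup and Pkp2. It was 8 to 16 for Dsc2 and for the genes that did not pass, Dsg2, Dsc3, Pkp1, Pkp3 and Dsp. No desmosome gene was called more abundant than another on this class. When arrays were instead centred on hybridization controls, bacterial and phage transcripts added before hybridization, the median difference of all probe sets became 0.18 and that of the desmosome probe sets -0.10. Those controls averaged 0.031 and 0.13 in CAS and -0.038 and -0.11 in SPI. Centring on them adds 0.155 to every difference, so any that is below 0 by less turns its sign. The same 5 probe sets passed as lower there, but over all probe sets the split went from 112 higher and 564 lower to 1557 higher and 704 lower.

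**Figure D1:**
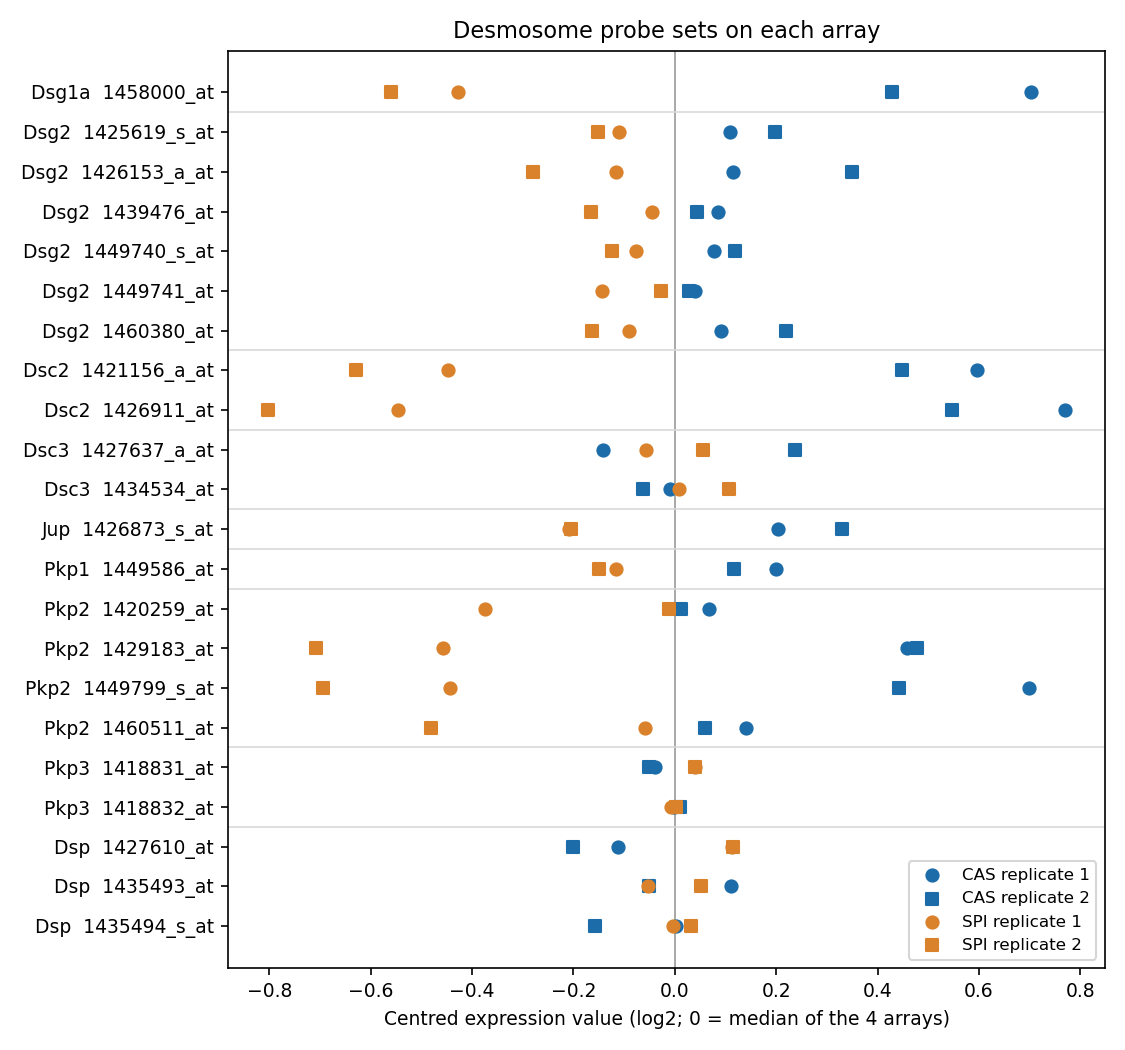
Centred log2 value (horizontal axis, 0 being the median of the 4 arrays) of each of the 22 desmosome probe sets (rows), with CAS arrays in blue, SPI arrays in orange, circles for replicate 1 and squares for replicate 2. The Dsc2 rows, the Dsg1a row and a pair of Pkp2 rows have CAS arrays above 0.42 and SPI arrays below -0.42, whereas the Dsc3, Pkp3 and Dsp rows lie within 0.24 of 0.

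Among the desmosomal cadherins, Dsc2 differed most. Its probe set 1426911_at had centred log2 values of 0.77 and 0.55 in CAS and -0.55 and -0.80 in SPI. The groups lay far apart, with a gap of 0.22 between the CAS arrays and 0.26 between the SPI arrays. SPI minus CAS came to -1.33 (log2, SE 0.128), with a limma adjusted p of 0.0227 over all probe sets. The other Dsc2 probe set, 1421156_a_at, had log2 values of 0.60 and 0.45 in CAS and -0.45 and -0.63 in SPI. That gave a difference of -1.06 (SE 0.103, limma adjusted p = 0.0229), so both readings of Dsc2 passed. Without 1 array in turn, neither passed, with limma adjusted p of 0.291, 0.257, 0.153 and 0.246 for 1426911_at without CAS replicate 1, CAS replicate 2, SPI replicate 1 and SPI replicate 2.

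Dsc3, the desmocollin of basal cell layers, did not pass on either probe set. Its probe set 1434534_at stood at log2 values of -0.0089 and -0.064 in CAS and 0.0089 and 0.11 in SPI, a difference of 0.094 (95% interval -0.11 to 0.30, limma adjusted p = 0.601). The other, 1427637_a_at, overlapped between the diets, and its CAS arrays alone spanned -0.14 to 0.24. Its difference was -0.047 (-0.41 to 0.32), with the sign turned when arrays were centred on the hybridization controls (0.11). Within each array, the centred log2 value of Dsc2 minus that of Dsc3 was 0.78 and 0.61 in CAS and -0.56 and -0.91 in SPI. SPI minus CAS of this contrast was -1.43, a measure of unequal change and not of level. An exact two-sided permutation test of 2 against 2 arrays gave p = 0.333, the smallest p that this design allows.

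Dsg1a, a desmoglein best known from the upper layers of skin, was read by 1 probe set, 1458000_at. Its log2 values were 0.70 and 0.43 in CAS and -0.43 and -0.56 in SPI. The CAS arrays differed from each other by 0.28, well inside the distance to the SPI arrays. The difference was -1.06 (SE 0.12, limma adjusted p = 0.0309). With the arrays left out in the same order as for Dsc2, its limma adjusted p was 0.291, 0.249, 0.216 and 0.306. Mouse Dsg1a has the near-identical copies Dsg1b and Dsg1c, so this signal is uncertain as to the copy. The probe set of Dsg1b had log2 values of 1.06 and 0.27 in CAS and -0.27 and -0.89 in SPI, and its difference of -1.24 did not pass (limma adjusted p = 0.159 over all probe sets).

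Dsg2, the desmoglein of simple epithelia, was read by 6 probe sets, none of which passed. All 6, repeat readings of the same gene, had both SPI arrays below both CAS arrays, as had 20.5% of all probe sets. The CAS values of the 6 lay between 0.028 and 0.35 on the log2 scale and their SPI values between -0.28 and -0.028. The differences ran from -0.12 to -0.43, with limma adjusted p from 0.166 to 0.50, and the smallest, that of 1449741_at, turned to 0.036 when arrays were centred on the hybridization controls. Per gene the difference of Dsg2 was -0.16 over the 3 probe sets in its highest class (95% interval -0.32 to -0.0047, limma adjusted p = 0.227). Over all 6 it was -0.25 (-0.42 to -0.078, limma adjusted p = 0.126). The centred value of Dsg1a minus that of Dsg2 within an array was 0.635 and 0.364 in CAS and -0.339 and -0.453 in SPI, with an exact permutation p of 0.333.

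The cadherin genes lie side by side in the mouse genome, in the order Dsc3, Dsc2, Dsc1, Dsg1c, Dsg1a, Dsg1b, Dsg4, Dsg3 and Dsg2 in the GRCm38.p6 assembly. Genes that passed and genes that did not were neighbours there. Dsc2 (-1.33 per gene) stood between Dsc3 (0.094) and Dsc1 (-0.15, adjusted p = 0.599), and Dsg2 at the far end was at -0.16. The neighbours Dsg1a (-1.06) and Dsg1b (-1.24, limma adjusted p = 0.118) had like differences, though Dsg1b did not pass. Dsg1c and Dsg4, like Dsg3, were not analysed here.

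**Figure D2:**
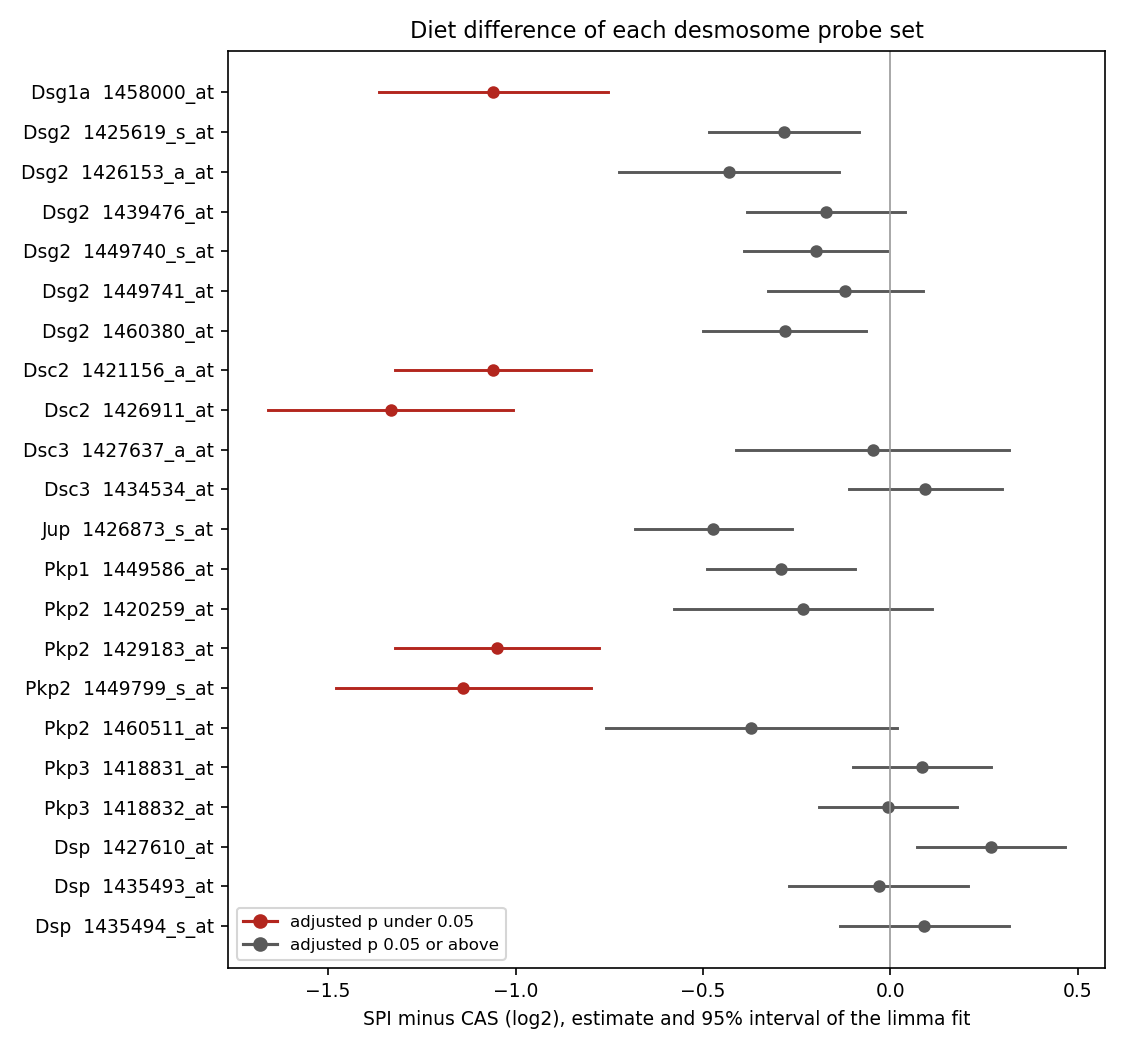
SPI minus CAS difference on the log2 scale (horizontal axis) of each desmosome probe set (rows), with the limma estimate as a point and its 95% interval as a line. The 5 probe sets in red, of Dsg1a, Dsc2 and Pkp2, passed at an adjusted p under 0.05 and have intervals that end below -0.75, while the intervals of the Dsc3 and Pkp3 rows include 0.

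Of the armadillo proteins that sit under the cadherins, Pkp2 and Jup were lower in SPI. Pkp2, the plakophilin of simple epithelia and heart, was read by 4 probe sets that differed in size. Probe set 1449799_s_at had log2 values of 0.70 and 0.44 in CAS and -0.44 and -0.69 in SPI, a difference of -1.14 (SE 0.133, limma adjusted p = 0.0333). That probe set is of a type, marked _s_at, that can bind related transcripts. Probe set 1429183_at had 0.46 and 0.48 in CAS and -0.46 and -0.71 in SPI, a difference of -1.05 (SE 0.107, limma adjusted p = 0.0247). In both, the diets were separated by more than the arrays of a diet differed. The other pair, 1460511_at and 1420259_at, was at -0.37 and -0.23 and did not pass (limma adjusted p = 0.299 and 0.436). In 1460511_at SPI replicate 2 stood alone at -0.48, with SPI replicate 1 at -0.060, and in 1420259_at SPI replicate 1 stood alone at -0.37, with SPI replicate 2 at -0.012. Averaged over all 4 probe sets Pkp2 was at -0.70 (adjusted p = 0.0154), and over the 3 in its highest class at -0.85 (adjusted p = 0.0321). Without CAS replicate 1, CAS replicate 2, SPI replicate 1 and SPI replicate 2, in turn, that value was -0.80, -0.91, -1.01 or -0.70 and did not pass (limma adjusted p = 0.235, 0.229, 0.0773 and 0.151).

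Jup, plakoglobin, had 1 probe set, 1426873_s_at, also of the type that can bind related transcripts. Its log2 values were 0.20 and 0.33 in CAS and -0.21 and -0.20 in SPI, so the SPI arrays almost coincided. The difference of -0.47 passed among genes (SE 0.0731, limma adjusted p = 0.0410). It did not pass among probe sets (SE 0.0819, limma adjusted p = 0.0771). With arrays centred on the hybridization controls it was -0.32 and did not pass among genes (adjusted p = 0.0619). Nor did it pass with CAS replicate 1, CAS replicate 2, SPI replicate 1 and SPI replicate 2 left out in turn (limma adjusted p = 0.200, 0.226, 0.217 and 0.256).

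The other plakophilins, Pkp1 and Pkp3, did not pass. Pkp1, which strengthens desmosomes in the epidermis, had log2 values of 0.20 and 0.12 in CAS and -0.12 and -0.15 in SPI. Its arrays did not overlap between the diets, but the difference of -0.29 did not pass among probe sets (95% interval -0.49 to -0.094, limma adjusted p = 0.165). Among genes its limma adjusted p was 0.0970, under the looser threshold of 0.10 but not under 0.05. Pkp3 lay near 0. Its probe set 1418831_at had -0.039 and -0.051 in CAS and 0.041 and 0.039 in SPI, a difference of 0.085 (95% interval -0.099 to 0.27), and 1418832_at was at -0.0066 (-0.19 to 0.18), or 0.15 under hybridization control centring. Neither passed (limma adjusted p = 0.598 and 0.980). The centred value of Pkp2 minus that of Pkp3 within an array was 0.47 and 0.38 in CAS and -0.36 and -0.67 in SPI, a difference of -0.938 between the diets. Against Pkp1 it was 0.23 and 0.21 in CAS and -0.20 and -0.48 in SPI. The exact permutation p was 0.333 for each, again the smallest possible, and all gene pairs set against each other here were chosen after their values were seen.

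**Figure D3:**
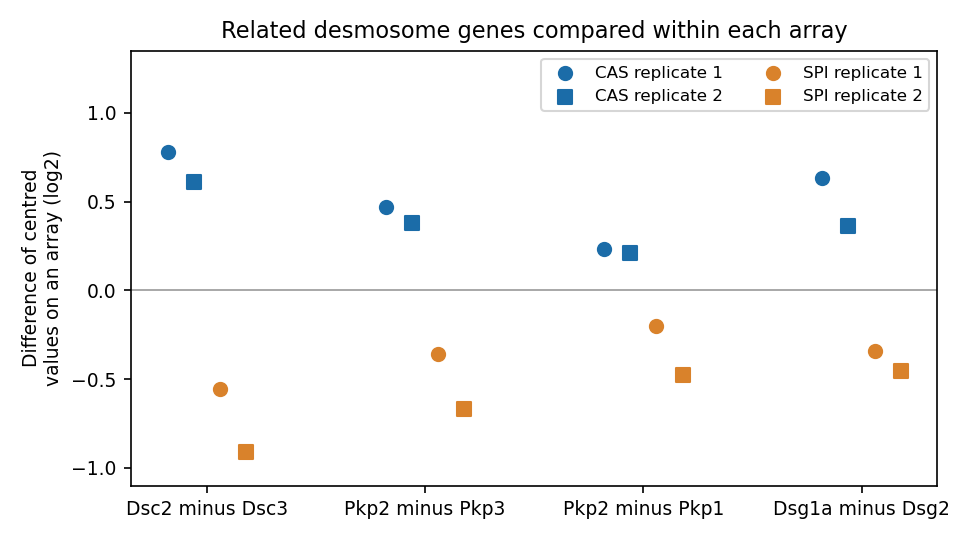
Difference between the centred log2 values of related desmosome genes on each array (vertical axis), for 4 gene pairs (horizontal axis), with CAS arrays in blue and SPI arrays in orange. All CAS arrays lie above 0.2 and all SPI arrays below -0.2 in each pair. The pairs were chosen after their values were seen, and the share of all gene pairs that separate in this way was not computed.

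Dsp, the plakin that binds keratin filaments, did not pass on any of its 3 probe sets. Probe set 1427610_at had log2 values of -0.11 and -0.20 in CAS and 0.11 and 0.11 in SPI, a difference of 0.27 (95% interval 0.073 to 0.47, limma adjusted p = 0.184), with both SPI arrays above both CAS arrays. The other probe sets overlapped between the diets. Probe set 1435493_at was at -0.031, or 0.12 under hybridization control centring, and 1435494_s_at at 0.091. Per gene Dsp was at 0.11 (-0.086 to 0.31, adjusted p = 0.474), an interval that extends to a 1.06-fold fall.

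RefSeq promoter sequences on GRCm38.p6 were at hand for 2 of the desmosome genes and are shown as a contrast between Jup, which passed among genes as lower, and Dsp, which did not pass. Each runs from 250 bases before the transcript start to 50 after it, 5′ to 3′ on the strand of the gene. Jup is at chr11:100397741-100398040 on the minus strand and Dsp at chr13:38151044-38151343 on the plus strand. Capitals mark GGGCGG, a GC box, or its reverse complement CCGCCC, and CAGGTG, an E-box bound by repressors of epithelial genes, or CACCTG.
Jup: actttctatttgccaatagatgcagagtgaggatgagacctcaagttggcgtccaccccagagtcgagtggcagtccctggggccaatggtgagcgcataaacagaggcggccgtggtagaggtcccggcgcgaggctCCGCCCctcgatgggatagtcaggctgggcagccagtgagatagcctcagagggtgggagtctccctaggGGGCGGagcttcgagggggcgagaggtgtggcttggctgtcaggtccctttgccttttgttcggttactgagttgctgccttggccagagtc
Dsp: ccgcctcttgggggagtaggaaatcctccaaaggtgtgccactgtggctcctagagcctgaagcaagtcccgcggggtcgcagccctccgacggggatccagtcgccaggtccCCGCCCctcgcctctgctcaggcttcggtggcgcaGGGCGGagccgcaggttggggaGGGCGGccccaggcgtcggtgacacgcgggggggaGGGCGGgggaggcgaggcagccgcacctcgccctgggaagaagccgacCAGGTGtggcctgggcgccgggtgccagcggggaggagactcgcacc
The Jup window held GGGCGG on either strand 2 times and the Dsp window 4 times. The motif is common, present in 35.7% of the 32851 promoters of this length. CAGGTG was found 1 time in Dsp, just past the transcript start, and 0 times in Jup, against 20.2% of all promoters. Neither window held TGANTCA (AP-1), AACCNGTT (grainyhead factors) or TTCNNNGAA (STAT factors), which were in 7.81%, 2.09% and 8.30% of promoters. These matches describe the letters of the window only.

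Other genes of the same junctions were compared as whole lists. Of 9 other desmosomal genes and plakins measured, 0 passed by limma, with 2 lower and 1 higher at an unadjusted p under 0.05. Over all genes 10.3% were lower and 10.8% higher at that unadjusted threshold, which holds for the lists below too. Envoplakin (Evpl), a plakin of the cornified envelope, was at -0.80 (adjusted p = 0.0516) and Dsg1b at -1.24 (adjusted p = 0.118). Perp, a membrane protein of desmosomes and a target of p63, was at -0.099. The list median of -0.12 turned to 0.040 under hybridization control centring. Of 13 adherens junction genes 0 passed by limma, with 2 lower and 1 higher at an unadjusted p under 0.05, and a median of -0.079, or 0.077 under hybridization control centring. The nectin Nectin4 was at -1.24 (adjusted p = 0.0542), although 1 of its probe sets passed at -1.68 (limma adjusted p = 0.0288), and Lima1, an actin binder, at 0.20 (adjusted p = 0.167), while the classical cadherins Cdh1 and Cdh3 were at -0.099 and 0.17. Of 8 hemidesmosome genes, which anchor basal cells to the basement membrane, 0 passed by limma, with 0 lower and 2 higher at an unadjusted p under 0.05. Dst, the plakin of hemidesmosomes, was at 0.31 (adjusted p = 0.0758) and Lama3, a laminin chain, at 0.25 (adjusted p = 0.124).

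The keratins that desmosomes hold together changed unevenly. Of 4 keratins of simple epithelium 3 fell, Krt7 by 1.34, Krt19 by 0.89 and Krt18 by 0.73 on the log2 scale (limma adjusted p = 0.0198, 0.0226 and 0.0200), and Krt8 was at -0.36 (adjusted p = 0.0581). Of 7 keratins of stratified and basal epithelium, Krt6a and Krt6b fell, by 1.46 and 1.30 (adjusted p = 0.0115 and 0.0110), and Krt15 rose by 0.73 (adjusted p = 0.0126). With any of the 4 arrays left out 0 genes of these and of the following marker lists passed by limma. Krt6a and Krt6b are near-identical copies and may share signal. Krt5, the main basal keratin, was at -0.042. Of 10 regulators of desmosomal genes and enzymes that shed their cadherins 1 rose, Trp63 (0.54, adjusted p = 0.0313), the p63 transcription factor of basal epithelium. That value is of the 1 probe set in its highest class, which did not pass among probe sets (limma adjusted p = 0.0625). Averaged over all 4 of its probe sets Trp63 was at 0.33 and did not pass (limma adjusted p = 0.0683), nor did it with the replicate number as a block (limma adjusted p = 0.0877). The grainyhead factors Grhl1, Grhl2 and Grhl3 were at -0.44, -0.098 and -0.12 and did not pass (limma adjusted p = 0.117, 0.461 and 0.429).

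**Figure D4:**
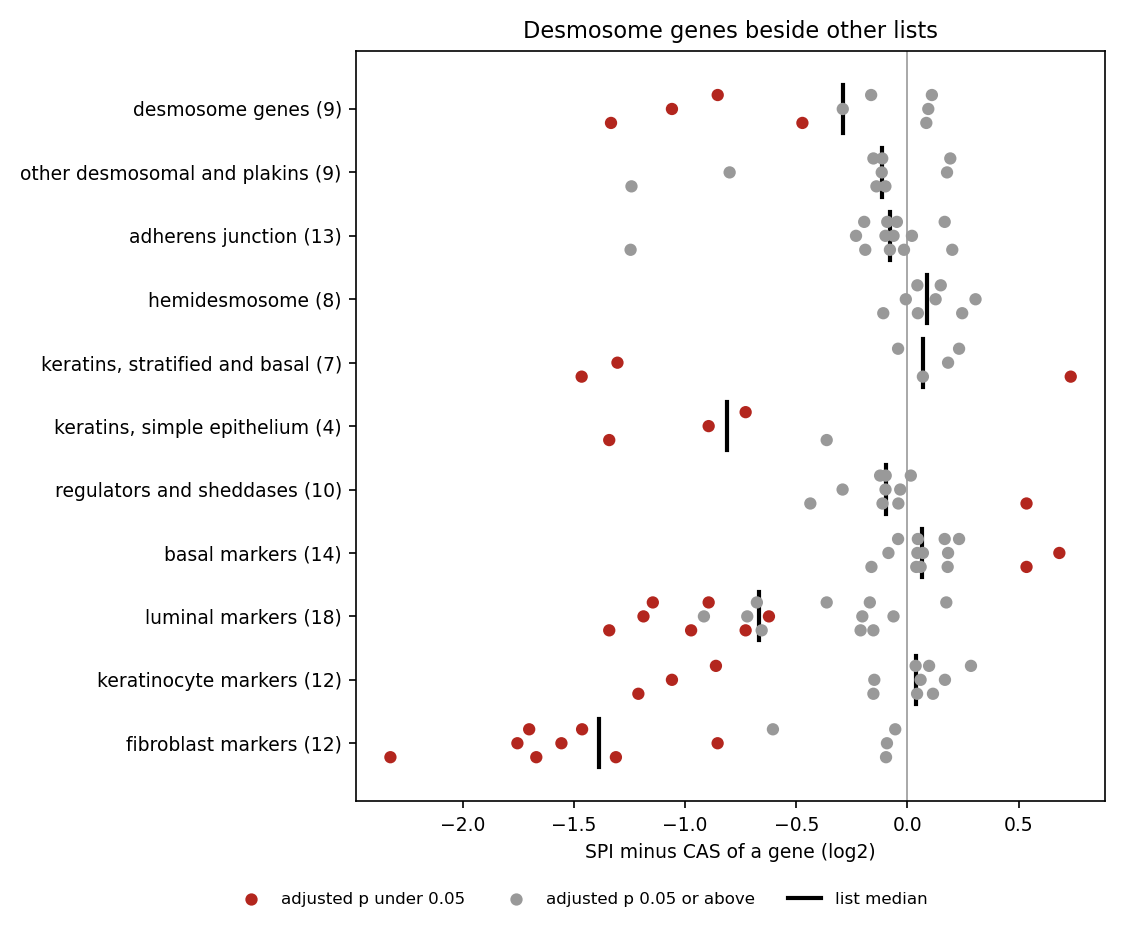
SPI minus CAS difference on the log2 scale (horizontal axis) of each measured gene (points) in the desmosome list and in 10 other lists (rows, with the number of genes), red where the limma adjusted p was under 0.05, and a black bar at the list median. The desmosome genes spread from -1.33 to 0.11, the luminal markers from -1.34 to 0.17 and the hemidesmosome genes from -0.11 to 0.31.

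Markers of other cells moved on the same arrays. Of 18 luminal markers, which include the 4 keratins of simple epithelium, 7 fell, Aldh1a3 (-1.14, limma adjusted p = 0.00796) and Ehf (-0.97, adjusted p = 0.0118) having the smallest p, and the list median was 0.27 on either CAS array and -0.22 and -0.52 in SPI. Of 12 keratinocyte markers 3 fell, Sbsn (-1.21, adjusted p = 0.0141), Calml3 (-0.86, adjusted p = 0.0365) and Dsg1a itself, and the medians were 0.0068 and -0.037 in CAS and -0.013 and 0.0077 in SPI. Of the keratinocyte genes Flg lay in the lowest signal class, and the skin keratins Krt1 (0.29) and Krt10 (0.097) did not pass. Of 12 fibroblast markers 8 fell, Lum (-2.32) and Dpt (-1.75) first, with medians of 0.68 and 0.63 in CAS and -0.59 and -0.71 in SPI. Of 8 endothelial and pericyte markers 4 fell, Pdgfrb (-1.46) and Cdh5 (-0.94) having the smallest p. All 8 were lower at an unadjusted p under 0.05, where 10.3% of all genes were. Of 8 macrophage markers 0 passed by limma, with C1qc at 0.42 and Cd68 at 0.51. At an unadjusted p under 0.05 there were 0 lower and 5 higher, where 10.8% of all genes were higher. Of 14 basal markers 2 rose, Oxtr (0.68, adjusted p = 0.0119) and Trp63 (the latter not with all its probe sets averaged, as above), and 13 of the 14 lay in the highest signal class, 8 to 16 on the log2 scale. The 13 include Krt5, Krt14 and Acta2, textbook markers of mammary basal cells. Of the 18 luminal markers 12 lay in that class too, so it is not particular to basal markers. No level sum can be given for any list because the values are centred. The part of these other cells in the falls of Dsc2, Pkp2, Dsg1a and Jup was not tested.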

How the data were processed

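Expression was measured on 4 Affymetrix arrays, 2 per diet. Per the submitters' processing notes the tools were GCOS and RMA. Their versions are not given in the sources used here, and files as deposited hold log2 expression values, the log base being that of RMA. They had also been centred per probe set (row medians within 5.0e-07 of 0), a step that no label records. No genome build is named.

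Of 45101 probe sets 64 were controls, the platform annotation gave 34945 a single gene, 932 more than 1 and 9160 no entry. Symbols were brought up to date by gene ID (34741 matched, GRCm38.p6 table). The step size of the digits (tolerance 5e-08) placed each probe set in a class of log2 signal (from 8 up to 16, from 4, from 2, or lower). The class is coarse: 16.3% of the top class also had the step of a higher one. Probe sets in the highest class of a gene were averaged.

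Differences (SPI minus CAS) were fitted with limma 3.58.1 in R 4.3.3 (lmFit, eBayes, two-sided, no block, 2 residual and 3.11 prior degrees of freedom for probe sets), with Benjamini-Hochberg adjustment over all 45037 non-control probe sets or 18193 genes and a threshold of 0.05. The fit was tested on simulated data. The number of arrays limits the precision. Members, lists and tests were chosen with earlier results of these data known. Named genes were all members, list genes that passed or else the 2 with the smallest p, and the 2 marker genes with the smallest p per cell type. Others were named after their values were seen. Alternatives were a replicate block, each array left out, arrays centred on their median or on 18 hybridization control probe sets, class 4 or above only, a variance trend over the class, an adjusted p under 0.10, and averaging every probe set of a gene.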

Additional observations from a re-analysis of the deposited data

How the results depend on the processing

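The 5 desmosome probe sets that passed kept their direction under every alternative run. They also passed with arrays centred on their median or on the hybridization controls, among probe sets of class 4 or above, and with a variance trend over the class (limma adjusted p from 0.00246 to 0.0280). With class 4 or above or the trend, Jup passed as well. With the replicate number as a block 0 of them passed by limma (adjusted p 0.0528 to 0.0931, with 11 lower at an unadjusted p under 0.05, where 6.99% of all probe sets were). The labels do not say whether a number pairs arrays. The correlation of deviations of same-numbered arrays over all probe sets was -0.099, which cannot settle whether they were paired. Among genes the block left 3 of 4, Jup being lost (limma adjusted p = 0.101). Leaving out each array gave 0 to 0 desmosome probe sets and genes lower by limma, with 7 to 10 desmosome probe sets lower at an unadjusted p under 0.05 (5.49% to 7.02% of all probe sets), and at the adjusted threshold 0 to 0 of all probe sets or of the list genes in either direction. A lone array then stands for a diet, is assumed to vary like the other diet's pair, and leaves 1 residual degree of freedom.

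Over all probe sets 564 were lower and 112 higher. The block gave 75 and 4, class 4 or above 928 and 400, the trend 1040 and 456, and an adjusted p under 0.10 gave 1109 and 470. At that looser threshold 6 desmosome probe sets were lower and 0 higher. Arrays centred on the hybridization controls gave 1557 higher, and 10 rather than 3 list genes higher. Averaging every probe set, and likewise the block, left 2 list genes higher, without Trp63. That centring moved the median of the desmosome probe sets from -0.257 to -0.102, and leaving out an array gave -0.269 to -0.212. The hybridization control centring turned the sign of 4 probe sets that had not passed, 1449741_at of Dsg2 (0.0358), 1427637_a_at of Dsc3 (0.108), 1418832_at of Pkp3 (0.149) and 1435493_at of Dsp (0.125). Leaving out an array moved 1427637_a_at between -0.236 and 0.142 and 1435493_at between -0.112 and 0.0499. The cause of these changes was not tested.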
